A study of Homo sapiens with 9 samples.

Results

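The genes described here are 40 genes of a standard S phase list, used to recognise cells that are copying their DNA, and they were taken by symbol from a count table of 60199 gene symbols. They were read in 9 RNA libraries, 3 from each of 3 lines of MCF10A, an established human mammary epithelial line that is not malignant and lacks the CDKN2A locus. CT was the parental line, labelled as not transformed and grown without added cytokines. MC26 came from unsorted MCF10A cells and M1B26 from cells sorted for the receptor BMPR1B. Both were labelled as transformed, had been exposed for a long time to the growth factor BMP2 and the cytokine IL6, and were grown with both factors at harvest, so origin, transformation and the presence of the factors cannot be told apart. According to the methods, 3 soft-agar clones of the treated BMPR1B-sorted cells were selected for M1B26, and the labels do not say whether each M1B26 library is one of them. The 3 cultures of a line are described as independent, and a batch that followed the line was not recorded. All 40 genes passed the filter on low counts that left 15717 genes in all for testing.

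Before S phase, the cell loads the MCM ring onto origins with the help of CDC6, a step called licensing, and geminin (GMNN) later blocks it from happening again. At the start of S phase CDC45 and the GINS complex turn the MCM ring into an active helicase, polymerases copy the strands on the sliding clamp PCNA, and the nucleotides come from enzymes such as thymidylate synthase (TYMS) and ribonucleotide reductase (RRM1 and RRM2). A checkpoint built around claspin (CLSPN) and TIPIN watches over the forks, repair enzymes mend damaged or mismatched bases, and histones and DNA methylation are copied behind the fork. Many of these genes are switched on together by E2F transcription factors at the passage from G1 to S phase. In bulk RNA a larger share of cells in S phase and more of these transcripts per cell cannot be told apart.

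The E2F-type sequence is shown first because it is what many of these promoters hold in common and because the list was not chosen by it. Promoter windows from RefSeq (GRCh38.p14, from 250 bases before to 50 bases after the transcription start) were found for 32 of the 40 genes. They were searched on both strands for the 4 words TTTCCCGC, TTTCGCGC, TTTGCCGC and TTTGGCGC. At least 1 word lay in the windows of 19 of the 32 genes (59.4%), against 6.73% of the 10946 tested genes with a window and 3.31% of all 35116 windows. The share was 34.4% of 64 other replication genes and 6.67% of 45 G2/M genes, which act later in the cycle. Some genes have several windows, and counted by window the share was 43.5% of 46 windows of S phase genes and 4.94% of 15923 windows of tested genes. Licensing genes held a word most often (5 of 6), and nucleotide supply genes least often (1 of 3). Of 26 matches, 16 lay wholly within the 100 bases before the start. The words can overlap, since TTTGGCGC on one strand and TTTCGCGC on the other share 4 letters, and the 26 matches formed 23 sites. A match is a run of letters and was not tested as a binding site.

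The 160 bases before the start are printed for 6 genes from different steps of replication. Words are in capitals as they read on the strand of the gene, where GCGGGAAA is TTTCCCGC on the other strand. Where a gene has several windows, the first window with a word is the one printed. For GINS2, DTL and UHRF1 the RefSeq start used lies inside the span of the gene in GENCODE. GINS2 (helicase, minus strand, chr16:85688955-85689114) is shown because it rose most in M1B26. MCM6 (helicase, minus strand, chr2:135876444-135876603) holds overlapping pairs of words. TYMS (nucleotide supply, plus strand, chr18:657493-657652), PCNA (clamp, minus strand, chr20:5126623-5126782), DTL (fork checkpoint, plus strand, chr1:212035588-212035747) and UHRF1 (chromatin copying, plus strand, chr19:4909341-4909500) each hold 1 word close to the start.
GINS2: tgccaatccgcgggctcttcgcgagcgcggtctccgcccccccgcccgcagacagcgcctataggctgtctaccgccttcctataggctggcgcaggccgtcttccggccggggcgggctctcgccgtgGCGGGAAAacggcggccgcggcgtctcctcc
MCM6: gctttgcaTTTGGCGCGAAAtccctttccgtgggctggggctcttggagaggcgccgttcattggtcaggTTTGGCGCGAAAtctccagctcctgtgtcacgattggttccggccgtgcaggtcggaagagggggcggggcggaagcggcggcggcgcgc
TYMS: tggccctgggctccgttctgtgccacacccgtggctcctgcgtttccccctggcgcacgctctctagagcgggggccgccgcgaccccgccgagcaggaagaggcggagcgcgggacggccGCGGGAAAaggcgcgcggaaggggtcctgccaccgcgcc
PCNA: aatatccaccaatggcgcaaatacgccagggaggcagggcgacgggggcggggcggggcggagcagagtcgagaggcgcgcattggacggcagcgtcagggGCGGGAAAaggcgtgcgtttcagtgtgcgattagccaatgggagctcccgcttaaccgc
DTL: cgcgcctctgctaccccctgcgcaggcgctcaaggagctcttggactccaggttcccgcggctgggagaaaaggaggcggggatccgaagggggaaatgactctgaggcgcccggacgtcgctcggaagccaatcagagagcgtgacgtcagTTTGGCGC
UHRF1: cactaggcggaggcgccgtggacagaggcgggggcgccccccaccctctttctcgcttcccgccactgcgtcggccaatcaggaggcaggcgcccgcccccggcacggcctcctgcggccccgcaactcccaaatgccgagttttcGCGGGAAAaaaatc

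Total counts per library ran from 21425118 (CT replicate 2) to 80076597 (CT replicate 3), and the 40 genes held 79764 to 277184 counts in a library. Levels below are CPM, counts scaled to 1 common library size by the TMM method. The labelled cell type was checked by markers. The summed level of 8 basal epithelial markers was 7260 to 11360 CPM across the libraries. It was 17.1 to 56.8 CPM for 6 fibroblast markers, 1.27 to 5.95 CPM for 4 endothelial markers and 14.8 to 78.9 CPM for 4 leukocyte markers, of which CD3E was at 0 and PTPRC under 0.1 CPM everywhere. The leukocyte sum was 14.8 to 19.9 CPM in CT, 34.4 to 36.8 CPM in MC26 and 56.8 to 78.9 CPM in M1B26, and came from CD14 and CD68. Within the epithelial list, KRT5 alone was at 4633 to 7299 CPM. EPCAM was at 65.6 to 74.4 CPM in CT, 11.7 to 19.1 CPM in MC26 and 63.5 to 85.7 CPM in M1B26. KRT14 was at 42.2 to 61.7 CPM in CT, 766 to 1521 CPM in MC26 and 461 to 625 CPM in M1B26. CDH1 was at 67.6 to 86.2 CPM in CT, 37.55 to 44.8 CPM in MC26 and 34.2 to 55.3 CPM in M1B26. The part of these differences in the results was not tested. CDKN2A and CDKN2B had 0 counts in every library.

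The S phase genes held 0.331% to 0.372% of all counts in CT, 0.399% to 0.441% in MC26 and 0.346% to 0.358% in M1B26. All MC26 libraries were above all others, while M1B26 lay within the range of CT. The mean CPM was highest in MC26 for 33 of the 40 genes (82.5%), in M1B26 for 6 and in CT for 1 (POLR1B). Over all tested genes MC26 had the highest mean in 30.4%. Per kilobase of transcript, PCNA was the most abundant of the genes in CT (141 ± 6.81 CPM per kb, SD, n = 3), before MCM7 (104 ± 7.74 CPM per kb) and RRM2 (83.1 ± 6.22 CPM per kb). E2F8 was the least abundant (2.17 ± 0.223 CPM per kb).

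**Figure D1:**
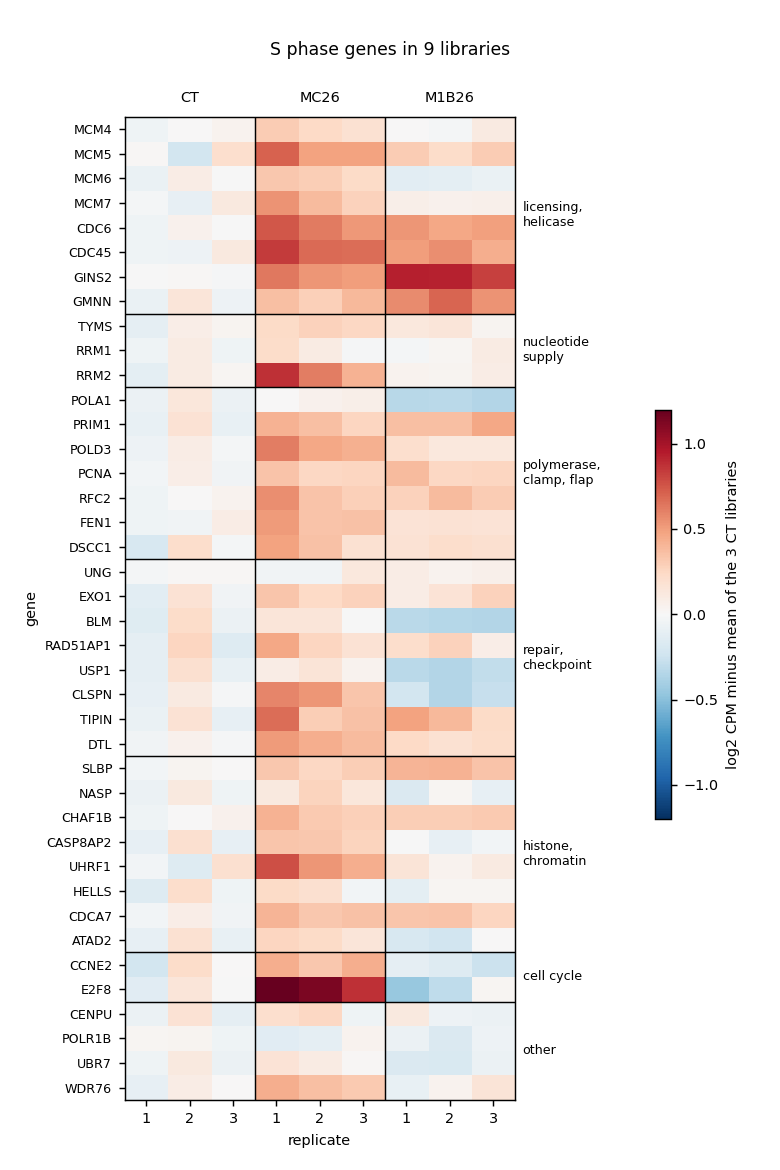
Level of each S phase gene (rows, grouped by function) in each library (columns, replicate number within CT, MC26 and M1B26), as log2 CPM minus the mean of the 3 CT libraries. The MC26 columns are red for nearly all rows, whereas in M1B26 the strongest red is in GINS2, GMNN, CDC6 and CDC45. Paler red is spread over most other groups in M1B26. POLA1, BLM, USP1 and CLSPN are blue in all M1B26 columns, and MCM6, CCNE2, UBR7 and POLR1B are weakly blue. E2F8 is at -0.46, -0.31 and 0.02 in the M1B26 columns.

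The first comparison asked how the S phase genes stood in MC26 relative to CT. By edgeR's quasi-likelihood test with Benjamini-Hochberg adjusted p under 0.05, 28 of the 40 genes were higher in MC26 and 0 were lower, and 12 did not pass the test. At an unadjusted p under 0.05 the count of lower genes was also 0, and DESeq2 called 29 higher and 0 lower. Over all tested genes, 18.8% were higher and 19.9% lower in this comparison. The median log2 fold change of the 40 genes was 0.35, against 0.00 for all tested genes, and single genes ran from -0.07 (POLR1B) to 1.14 (E2F8). For 27 genes the 3 MC26 libraries all lay above the 3 CT libraries, while the groups did not overlap for 50.3% of tested genes. At least 1.5-fold increases were seen for 4 genes (E2F8, CDC45, RRM2 and CDC6), so most changes were small. With total counts in place of TMM scaling the median of all tested genes moved to -0.08 and 23 S phase genes were higher.

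The question was then put to M1B26, using the same CT libraries. By edgeR 13 of the 40 genes were higher in M1B26, 4 were lower (POLA1, BLM, USP1 and CLSPN) and 23 did not pass the test. Over all tested genes 25.2% were higher and 23.7% lower, so the S phase genes were nearer to the background than in MC26. The median log2 fold change was 0.08, and it was -0.01 with total counts, under which 10 genes were higher and 7 lower. Groups did not overlap for 22 of the 40 genes, against 59.0% of tested genes. The higher genes were 5 licensing genes, PRIM1, PCNA, RFC2, TIPIN, DTL, SLBP, CHAF1B and CDCA7.

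The third comparison set the transformed lines against each other. By edgeR M1B26 was below MC26 for 21 of the 40 genes and above it for 2 (GINS2 and GMNN), where the background was 18.4% lower and 21.2% higher. The median log2 difference was -0.22, against 0.00 for all tested genes. Groups did not overlap for 25 of the 40 genes and for 53.5% of tested genes. The count of lower genes changed when single libraries were left out. It was 15 without MC26 replicate 1 or without M1B26 replicate 1, and 16 without MC26 replicate 2. It was 17 without M1B26 replicate 2 and 18 without M1B26 replicate 3. Lower calls among all tested genes fell too, from 2887 of 15717 to 2210 of 16057 without MC26 replicate 1. They were 2315 of 16013 without M1B26 replicate 1 and 1965 of 16036 without MC26 replicate 2. Without M1B26 replicate 2 they were 2002 of 16014, and without M1B26 replicate 3 they were 2268 of 15994. MCM4, MCM5, CDC45, FEN1, NASP, DTL, UBR7 and GMNN were the calls lost in these fits. A single gene, MCM5, was also lost without CT replicate 1.

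**Figure D2:**
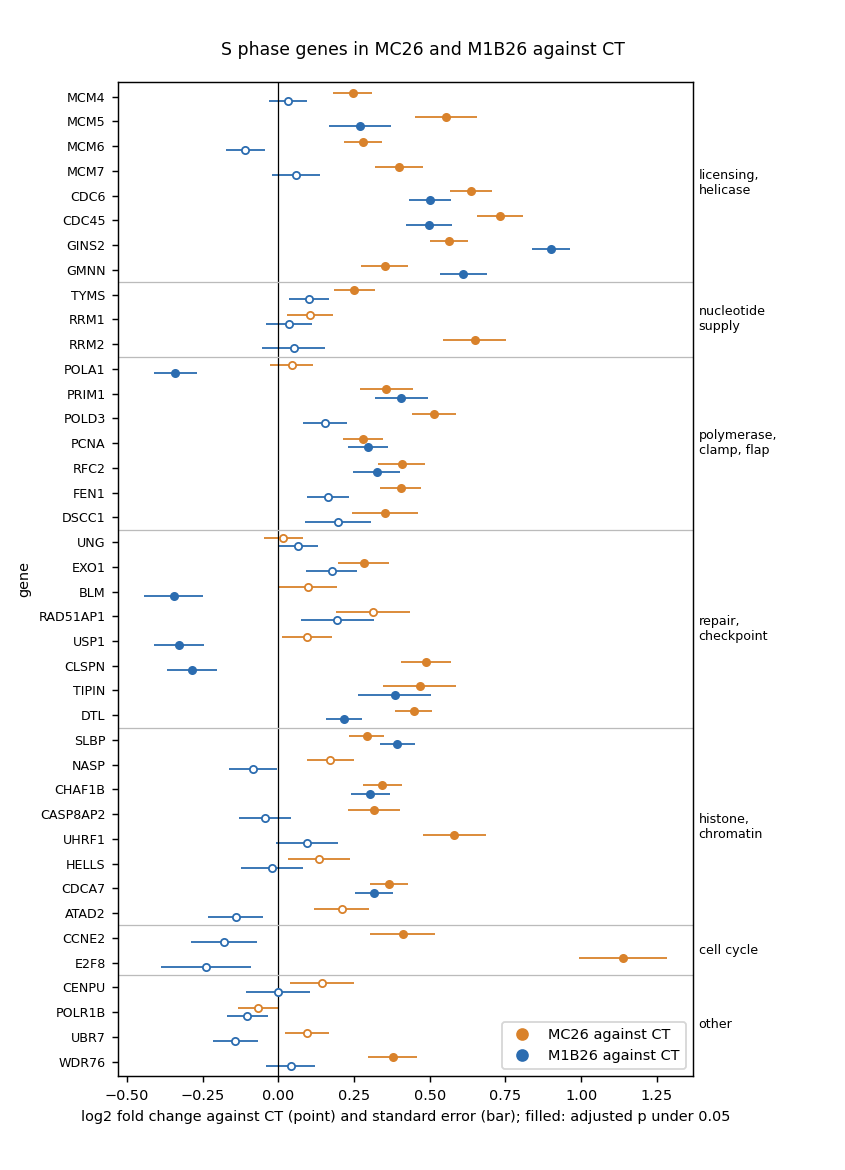
Log2 fold change against CT of the 40 S phase genes in MC26 (orange) and M1B26 (blue), with the standard error as a bar and filled points for an adjusted p under 0.05 by edgeR. In MC26 39 of 40 points lie above 0 and 28 are filled, and in M1B26 13 filled points lie above 0 and 4 below it.

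Licensing and helicase genes were the group with the most increases in both lines. All 8 (MCM4, MCM5, MCM6, MCM7, CDC6, CDC45, GINS2 and GMNN) were higher in MC26, with log2 fold changes of 0.24 to 0.73. In M1B26 5 of the 8 were higher, and MCM4 (0.03), MCM6 (-0.11) and MCM7 (0.06), 3 subunits of the ring, did not pass the test. Of all tested genes, 18.8% were higher in MC26 and 25.2% in M1B26. GINS2, a subunit of the complex that activates the ring, had 35.5, 35.9 and 35.3 CPM in CT, 55.5, 51.6 and 50.6 CPM in MC26 and 68.3, 67.7 and 63.3 CPM in M1B26. The 3 lines did not overlap, and M1B26 was highest. The log2 fold change of GINS2 was 0.56 in MC26 (SE 0.06, edgeR adjusted p 6.35e-05) and 0.90 in M1B26 (SE 0.06, edgeR adjusted p 1.75e-06), and M1B26 exceeded MC26 by 0.34 (SE 0.06, edgeR adjusted p 0.00184). GINS2 lies on chromosome 16 (85676198 to 85690073, minus strand), where genes within 5 Mb had a median log2 fold change of -0.01 in M1B26.

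CDC45, the partner that joins the GINS complex on the MCM ring, had 39.6, 39.4 and 44.5 CPM in CT, 73.8, 65.9 and 65.7 CPM in MC26 and 58.2, 60.7 and 55.6 CPM in M1B26. Here the order was MC26, M1B26, CT, with no overlap between the lines. Its log2 fold change was 0.73 in MC26 (SE 0.08, edgeR adjusted p 3.5e-05) and 0.50 in M1B26 (SE 0.08, edgeR adjusted p 0.000327). The difference between M1B26 and MC26 was -0.24 (SE 0.08, edgeR adjusted p 0.0285) and was lost in 4 of the fits that left out a library.

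CDC6, the loader of the MCM ring, had 66.2, 71.1 and 68.4 CPM in CT, 115, 106 and 98.8 CPM in MC26 and 99.5, 94.96 and 96.4 CPM in M1B26. Both transformed lines lay above CT, by 0.64 in MC26 (SE 0.07, edgeR adjusted p 4.78e-05) and 0.50 in M1B26 (SE 0.07, edgeR adjusted p 0.000165), and they overlapped each other. CDC6 lies on chromosome 17 (40287879 to 40304657, plus strand). In M1B26 the median log2 fold change of 842 tested genes of that chromosome was 0.48, and that of 172 genes within 5 Mb of CDC6 was 0.43, so the increase of CDC6 in M1B26 was about as large as that of its neighbours. In MC26 the same medians were 0.00 and -0.03.

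GMNN, which encodes the licensing inhibitor geminin, was higher in MC26 by 0.35 (SE 0.08, edgeR adjusted p 0.00489) and in M1B26 by 0.61 (SE 0.08, edgeR adjusted p 9.95e-05). The mean of the CT libraries was 57.3 ± 5.26 CPM, that of MC26 72.9 ± 2.69 CPM and that of M1B26 87.3 ± 5.27 CPM (SD, n = 3). The further step from MC26 to M1B26 (0.26) was 0.07 (edgeR adjusted p 0.288) when transcript length and GC content were entered as offsets. Of the ring subunits, MCM5 changed most in MC26 (0.55, SE 0.10). In M1B26 its call (0.27, edgeR adjusted p 0.0489) was just under the threshold and was lost in 9 of 18 alternative fits.

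Of the 3 nucleotide supply genes, TYMS and RRM2 were higher in MC26 and none passed the test in M1B26 by edgeR (unadjusted p 0.155 to 0.658) or by DESeq2. The share of higher genes among all tested genes was 18.8% in MC26 and 25.2% in M1B26. RRM2, the small subunit of ribonucleotide reductase, whose level follows the cell cycle, had 249, 289 and 274 CPM in CT, 497, 414 and 361 CPM in MC26 and 278, 276 and 287 CPM in M1B26. MC26 lay above both other lines and its replicates spread 1.38-fold, the widest of the 40 genes in that line, whereas M1B26 fell inside the CT range. The log2 fold change of RRM2 was 0.65 in MC26 (SE 0.10, edgeR adjusted p 0.000722) and 0.05 in M1B26 (SE 0.10, edgeR adjusted p 0.717), and the lines differed by -0.60 (SE 0.10, edgeR adjusted p 0.00125). RRM1, the large subunit, had 189, 208 and 188 CPM in CT, 227, 208 and 193 CPM in MC26 and 191, 199 and 209 CPM in M1B26, and the 3 lines overlapped.

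TYMS, which makes thymidylate, had 114, 130 and 125 CPM in CT, 144, 148 and 146 CPM in MC26 and 134, 136 and 126 CPM in M1B26. MC26 was above CT without overlap, by 0.25 (SE 0.07, edgeR adjusted p 0.0123), and this call was lost with total counts and without CT replicate 1. TYMS (chromosome 18, 657653 to 673578, plus strand) shares 60% of its exonic bases with ENOSF1 on the opposite strand. The strandedness of the counting is not stated, so reads of the pair cannot be told apart, and ENOSF1 itself had log2 fold changes of 0.05 and 0.10 against CT that did not pass the test.

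Among the 7 genes of polymerases, clamp and flap processing, 6 were higher in MC26, all but POLA1. In M1B26 PRIM1, PCNA and RFC2 were higher and POLA1 was lower. Among all tested genes 18.8% were higher in MC26, and 25.2% were higher and 23.7% lower in M1B26. The counts in M1B26 were thus not far from the background. PCNA, the sliding clamp, had 176, 190 and 175 CPM in CT, 228, 213 and 215 CPM in MC26 and 234, 214 and 215 CPM in M1B26. It was above CT in every transformed library, by 0.28 in MC26 (SE 0.07, edgeR adjusted p 0.00666) and 0.29 in M1B26 (SE 0.07, edgeR adjusted p 0.0037), and the transformed lines overlapped. With length and GC offsets PCNA in M1B26 was 0.10 against CT (edgeR adjusted p 0.156) and lost its call. The log2 difference of PCNA between M1B26 and MC26 was then -0.17 (edgeR adjusted p 0.0317). RFC2, a subunit of the loader of that clamp, had 46.1, 48.0 and 49.3 CPM in CT, 70.8, 60.9 and 58.5 CPM in MC26 and 58.1, 62.4 and 59.2 CPM in M1B26. It was higher in both lines, by 0.41 in MC26 (SE 0.08, edgeR adjusted p 0.00206) and 0.32 in M1B26 (SE 0.08, edgeR adjusted p 0.00548). With the offsets RFC2 in M1B26 was 0.18 against CT (edgeR adjusted p 0.0517) and lost its call.

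Both PRIM1 and POLA1 encode subunits of polymerase alpha-primase, which lays down primers. PRIM1, the small primase subunit, had 20.1, 24.2 and 20.1 CPM in CT, 28.7, 27.5 and 25.6 CPM in MC26 and 27.6, 27.6 and 29.6 CPM in M1B26, above CT in all 6 transformed libraries. Its log2 fold change was 0.36 in MC26 (SE 0.09, edgeR adjusted p 0.00854) and 0.41 in M1B26 (SE 0.09, edgeR adjusted p 0.00296). Another protein-coding gene on the same strand shares 25.4% of the PRIM1 exonic bases. POLA1, the catalytic subunit, had a mean of 45.1 ± 3.88 CPM in CT, a similar 46.4 ± 0.967 CPM in MC26 and 35.6 ± 0.365 CPM in M1B26 (SD, n = 3). M1B26 stood below CT (log2 fold change -0.34, SE 0.07, edgeR adjusted p 0.00229), while in MC26 it differed from CT by 0.04 (edgeR adjusted p 0.654). With length and GC offsets the values in M1B26 were 0.22 for PRIM1 and -0.18 for POLA1, both still past the test. The other subunits, named after their values were seen, were PRIM2 at 0.28 (edgeR adjusted p 0.0135) and POLA2 at -0.01 (edgeR adjusted p 0.926) in M1B26.

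POLD3, an accessory subunit of the lagging-strand polymerase delta, had 31.1, 34.7 and 31.9 CPM in CT, 49.96, 45.2 and 43.9 CPM in MC26 and 37.4, 35.5 and 35.4 CPM in M1B26. It showed the largest increase of this group in MC26 (0.51, SE 0.07, edgeR adjusted p 0.000333), and M1B26 lay between the other lines at 0.15 (edgeR adjusted p 0.107). FEN1, the flap nuclease, and DSCC1, which belongs to an alternative clamp loader, were higher in MC26 by 0.40 and 0.35 and did not pass the test in M1B26 (0.16 and 0.20). The call for DSCC1 in MC26 was lost in 6 of 18 alternative fits.

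**Figure D3:**
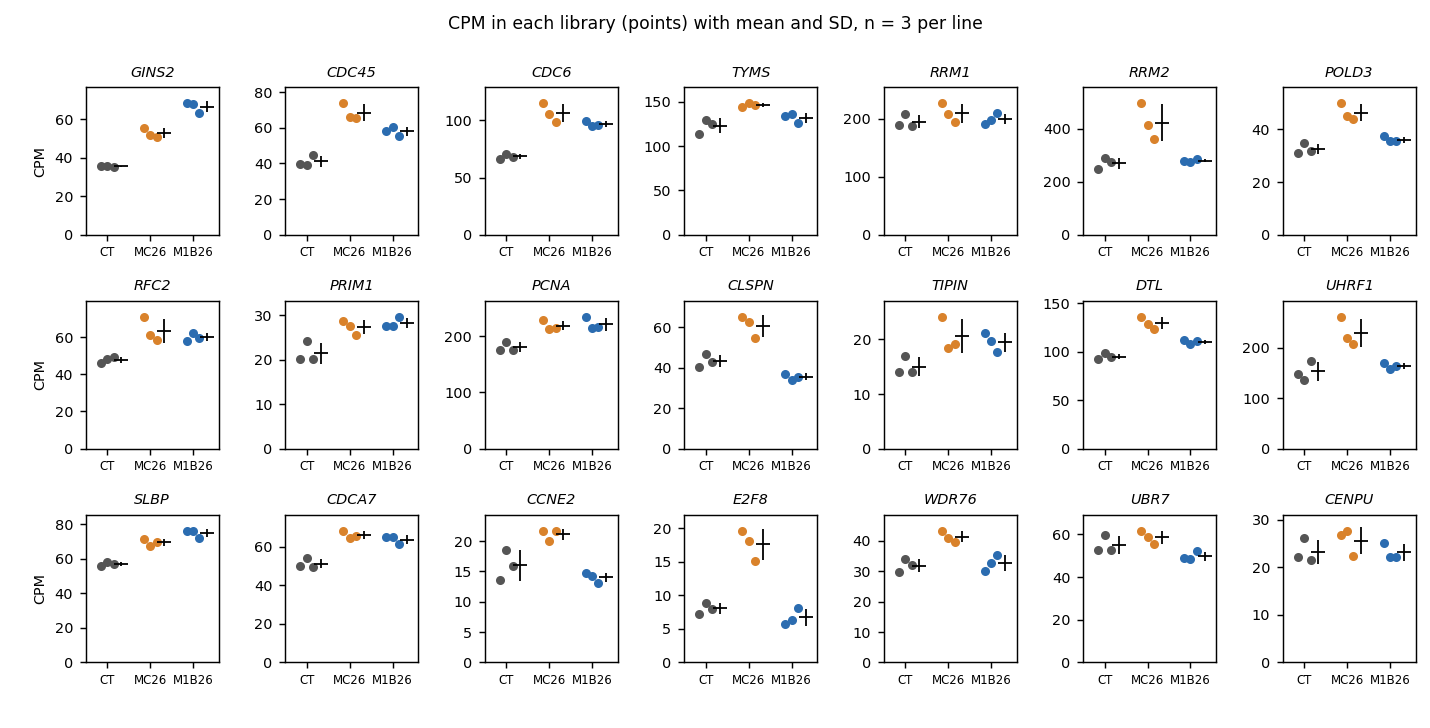
CPM in each library of the 21 S phase genes whose values are given per library in the text, with the 3 cultures of each line as points and the mean and SD beside them; every y axis starts at 0. MC26 stands above CT without overlap for all but RRM1, UBR7 and CENPU, whereas M1B26 is within or below the CT range for RRM2, CLSPN, UHRF1, CCNE2, E2F8, UBR7 and CENPU.

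Of the 8 repair and fork checkpoint genes, 4 were higher in MC26 (EXO1, CLSPN, TIPIN and DTL). In M1B26 2 were higher (TIPIN and DTL) and 3 lower (BLM, USP1 and CLSPN), against 25.2% and 23.7% of all tested genes, so the count of higher genes was at the background. CLSPN, the adaptor that passes the fork signal to the checkpoint kinase, had 40.5, 46.7 and 43.0 CPM in CT, 65.1, 62.6 and 54.6 CPM in MC26 and 37.1, 33.9 and 35.6 CPM in M1B26. MC26 was above and M1B26 below CT without overlap. The log2 fold change of CLSPN was 0.49 in MC26 (SE 0.08, edgeR adjusted p 0.000976) and -0.29 in M1B26 (SE 0.08, edgeR adjusted p 0.015), and the lines differed by -0.77 (SE 0.08, edgeR adjusted p 6.15e-05). With length and GC offsets CLSPN in M1B26 turned to 0.02 (edgeR adjusted p 0.816), and the call was also lost without M1B26 replicate 2, so the direction against CT depended on the processing.

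TIPIN, which holds CLSPN at the fork, had 14.1, 16.99 and 13.97 CPM in CT, 24.1, 18.5 and 19.2 CPM in MC26 and 21.1, 19.7 and 17.6 CPM in M1B26. Both transformed lines were above CT, by 0.47 in MC26 (SE 0.12, edgeR adjusted p 0.0111) and 0.38 in M1B26 (SE 0.12, edgeR adjusted p 0.0219), the latter lost in 7 of 18 alternative fits. DTL, the substrate receptor of a ligase that destroys the licensing factor CDT1 in S phase, had 92.3, 98.3 and 94.3 CPM in CT, 136, 129 and 124 CPM in MC26 and 112, 108 and 111 CPM in M1B26. The lines did not overlap. DTL was higher by 0.45 in MC26 (SE 0.06, edgeR adjusted p 0.000233) and 0.22 in M1B26 (SE 0.06, edgeR adjusted p 0.0124), the latter lost with total counts and without CT replicate 1.

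BLM, a helicase that resolves recombination intermediates, had a mean of 24.4 ± 3.40 CPM in CT, one of 25.9 ± 1.56 CPM in MC26 and one of 19.1 ± 0.192 CPM in M1B26 (SD, n = 3). USP1, a deubiquitinase that acts on PCNA, was at 79.7 ± 9.70, 84.8 ± 3.30 and 63.3 ± 1.19 CPM in the same order. Against CT, the log2 values of M1B26 were -0.35 (SE 0.10, edgeR adjusted p 0.0125) for BLM and -0.33 (SE 0.08, edgeR adjusted p 0.00719) for USP1, and every M1B26 library was under every CT library. UNG, which removes uracil from DNA, and RAD51AP1, a recombination factor, passed the test in no comparison. RAD51AP1 in MC26 (0.31, edgeR adjusted p 0.0625) was called by DESeq2, without the low count filter and in 5 further alternatives.

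Of 8 genes for histone supply and chromatin copying, 5 were higher in MC26 (SLBP, CHAF1B, CASP8AP2, UHRF1 and CDCA7) and 3 in M1B26 (SLBP, CHAF1B and CDCA7). Among all tested genes 18.8% were higher in MC26 and 25.2% in M1B26, so the count in M1B26 was not far from the background. UHRF1, which guides maintenance DNA methylation to the new strand, had 149, 137 and 175 CPM in CT, 261, 221 and 207 CPM in MC26 and 170, 158 and 165 CPM in M1B26. MC26 was above both other lines and M1B26 lay inside the CT range. UHRF1 was higher in MC26 by 0.58 (SE 0.10, edgeR adjusted p 0.00138), and M1B26 differed from MC26 by -0.49 (SE 0.10, edgeR adjusted p 0.004) and from CT by 0.09 (edgeR adjusted p 0.479).

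SLBP, which binds the stem-loop of histone mRNAs, had 55.6, 58.1 and 57.0 CPM in CT, 71.5, 67.5 and 69.9 CPM in MC26 and 75.8, 76.1 and 72.2 CPM in M1B26. It was one of the few genes with its highest mean in M1B26, by 0.39 against CT (SE 0.06, edgeR adjusted p 0.000262), although the step from MC26 (0.10) did not pass the test. CDCA7, a partner of the remodeller HELLS, had 50.1, 53.99 and 49.6 CPM in CT, 68.2, 64.3 and 65.3 CPM in MC26 and 64.8, 65.2 and 61.1 CPM in M1B26, so both transformed lines were above CT and overlapped each other. Its log2 fold change was 0.37 in MC26 (SE 0.06, edgeR adjusted p 0.00107) and 0.32 in M1B26 (SE 0.06, edgeR adjusted p 0.00179). HELLS itself passed the test in no comparison. NASP, a histone chaperone, and ATAD2, a chromatin factor, had 0.17 and 0.21 in MC26 and -0.08 and -0.14 in M1B26 without passing the test, and both were lower in M1B26 than in MC26 (-0.26 and -0.35).

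For both cell cycle regulators MC26 exceeded CT, and M1B26 stood below MC26. E2F8, a repressor of E2F targets that is itself an E2F target, had 7.26, 8.91 and 8.02 CPM in CT, 19.6, 18.1 and 15.1 CPM in MC26 and 5.73, 6.39 and 8.16 CPM in M1B26. MC26 stood far above the other lines, which overlapped. E2F8 rose 2.20-fold in MC26 (log2 fold change 1.14, SE 0.14, edgeR adjusted p 0.000148), the largest change of the 40 genes. In M1B26 it differed from CT by -0.24 (SE 0.15, edgeR adjusted p 0.203) and from MC26 by -1.38 (SE 0.15, edgeR adjusted p 5.61e-05).

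CCNE2, a cyclin that drives the entry into S phase, had 13.5, 18.6 and 15.9 CPM in CT, 21.6, 20.01 and 21.7 CPM in MC26 and 14.7, 14.2 and 13.2 CPM in M1B26. MC26 was above both other lines, by 0.41 against CT (SE 0.11, edgeR adjusted p 0.0119), and M1B26 overlapped CT (-0.18, edgeR adjusted p 0.194) and differed from MC26 by -0.59 (SE 0.11, edgeR adjusted p 0.00168). INTS8 covers 56.9% of the exonic bases of CCNE2 on the opposite strand, and its own log2 fold changes against CT were -0.12 and -0.21, neither past the test.

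The remaining 4 genes of the list serve other functions. WDR76 had 29.7, 33.8 and 31.9 CPM in CT, 43.2, 40.8 and 39.6 CPM in MC26 and 29.9, 32.6 and 35.3 CPM in M1B26, and was higher in MC26 by 0.38 (SE 0.08, edgeR adjusted p 0.00392), with M1B26 overlapping CT. UBR7, a ubiquitin ligase, had 52.9, 59.9 and 52.5 CPM in CT, 61.7, 58.9 and 55.6 CPM in MC26 and 48.8, 48.4 and 52.3 CPM in M1B26. Its values in the transformed lines parted (-0.24, SE 0.07, edgeR adjusted p 0.0251), although neither line passed the test against CT. CENPU, a centromere protein, had 22.2, 26.3 and 21.6 CPM in CT, 26.8, 27.7 and 22.4 CPM in MC26 and 25.2, 22.2 and 22.2 CPM in M1B26, with the lines overlapping. POLR1B, a subunit of RNA polymerase I, had its highest mean in CT (124 ± 3.96 CPM, SD, n = 3) and passed the test in no comparison.

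Within a line, some libraries ranked high or low over most of the list. CT replicate 2, the shallowest library, was the highest CT library for 31 of the 40 genes, and CT replicate 1 was the lowest for 25. In MC26 replicate 1 was the highest for 30 genes and replicate 3 the lowest for 27, whereas no such library stood out in M1B26 (10 to 16 genes each at the lowest place). The median of the 40 genes, as log2(CPM + 0.5) relative to CT, was 0.42, 0.30 and 0.28 in the MC26 libraries, 0.10, 0.05 and 0.10 in the M1B26 libraries, and -0.07, 0.09 and -0.02 in the CT libraries. M1B26 replicate 2 therefore lay under CT replicate 2, and the MC26 libraries lay above all others. Without CT replicate 2, 33 S phase genes were higher in MC26 and 16 in M1B26, and without CT replicate 1 the counts were 22 and 10. Among all tested genes, 2970 of 15988 were higher in MC26 and 3823 in M1B26 without CT replicate 2. Without CT replicate 1 these counts were 2163 and 3244 of 15959, and with all libraries they were 2947 and 3959 of 15717.

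The 75 other replication genes, a list of further subunits and enzymes of the same steps, were read in the same fit. In MC26 38 were higher and 5 lower (median 0.23), where 18.8% and 19.9% of all tested genes were. In M1B26 23 were higher and 8 lower (median 0.09), where 25.2% and 23.7% of all tested genes were. The higher count in M1B26 was thus near the background. Between the transformed lines 6 were higher and 26 lower in M1B26, where 21.2% and 18.4% of all tested genes were. The largest changes in MC26 were CCNE1, the sister cyclin of CCNE2 (0.83, SE 0.09, edgeR adjusted p 4.71e-05), and CDT1, the licensing factor that geminin blocks (0.74, SE 0.11, edgeR adjusted p 0.000371). In M1B26 they were TK1, thymidine kinase (0.82, SE 0.12, edgeR adjusted p 0.000297), and DCTPP1, which clears abnormal nucleotides (0.79, SE 0.10, edgeR adjusted p 9.81e-05). Between the lines they were the E2F activators E2F1 (-0.72, SE 0.12, edgeR adjusted p 0.000777) and E2F2 (-0.71, SE 0.11, edgeR adjusted p 0.000491), both lower in M1B26. Of the 12 other cell cycle regulators, 8 were lower in M1B26 than in MC26, against 18.4% of all tested genes.

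The 54 G2/M genes, which mark cells about to divide, were read in the same way. In MC26 11 were higher and 3 lower (median 0.09), where 18.8% and 19.9% of all tested genes were, so the higher count was near the background. In M1B26 4 were higher and 21 lower (median -0.22), where 25.2% and 23.7% of all tested genes were. Between the transformed lines 3 were higher and 31 lower in M1B26 (median -0.29), where 21.2% and 18.4% of all tested genes were. Lower values in M1B26 than in MC26 were thus not particular to the S phase genes. By library the G2/M median fell between 0.29 and -0.09 in MC26 and between -0.26 and -0.15 in M1B26.

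**Figure D4:**
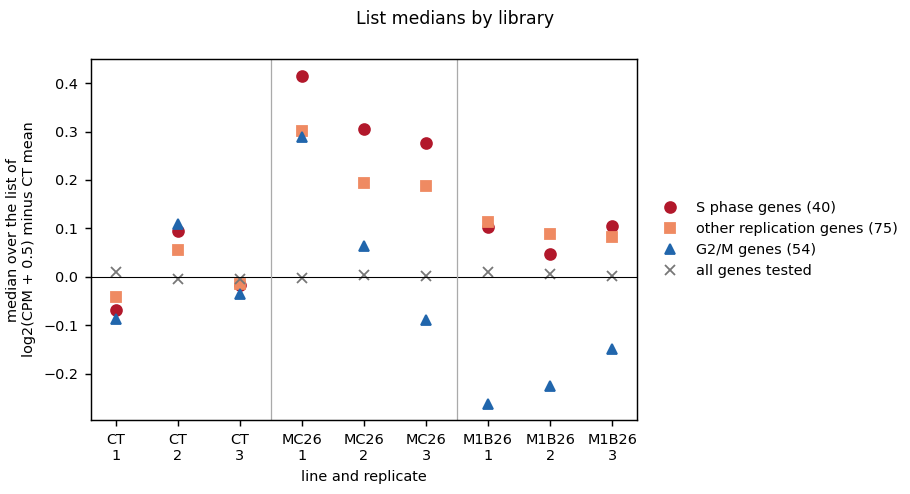
Median over each gene list of log2(CPM + 0.5) minus the CT mean, by library: S phase genes (circles), other replication genes (squares), G2/M genes (triangles) and all tested genes (crosses). In M1B26 the S phase medians (0.05 to 0.10) are above 0 and the G2/M medians (-0.26 to -0.15) below it, and in MC26 the S phase medians (0.28 to 0.42) are the highest in every library.

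Transcript length moved with the result in M1B26. Over the 40 genes, Spearman's rho between canonical transcript length and log2 fold change was -0.58 for M1B26 set against CT, -0.54 in M1B26 against MC26 and -0.10 in MC26 against CT. Over 13830 tested genes with a length it was -0.29, -0.25 and -0.10. These are correlations across genes that share the same libraries and are given as a description. The 13 genes higher in M1B26 had a median transcript length of 1879 bases, and the 4 lower genes 5364 bases. When length and GC content were entered as offsets, 13 S phase genes were still higher and 4 lower in M1B26, but not the same ones: PCNA, RFC2, TIPIN and CLSPN lost their call, POLD3, EXO1 and POLR1B became higher and CCNE2 lower. GINS2 (0.86), CDC6 (0.61), GMNN (0.41) and CDC45 (0.37) kept their increases, and USP1 (-0.30), BLM (-0.20) and POLA1 (-0.18) their decreases. In MC26 all 28 calls were kept and 4 were added. Between the transformed lines 27 genes were then lower in M1B26, with TYMS, PCNA, RFC2, DSCC1, RAD51AP1 and CENPU added, and GMNN lost its call. Calls among all 15717 tested genes rose with the offsets too. Lower calls between the lines went from 2887 to 3391, and higher calls in MC26 against CT from 2947 to 3796. In M1B26 against CT higher calls went from 3959 to 4269 and lower calls from 3729 to 3890. The part of library quality in the relation with length was not tested.

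**Figure D5:**
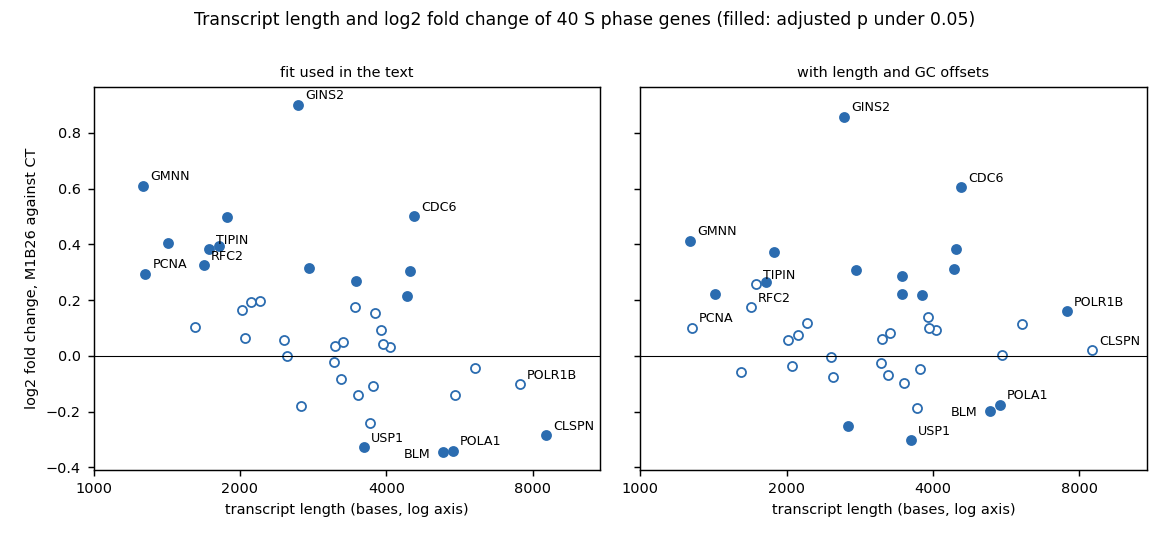
Log2 fold change of the 40 S phase genes in M1B26 against CT by length of the canonical transcript (log axis), in the fit used in the text (left) and with offsets for length and GC content (right), with filled points for an adjusted p under 0.05 by edgeR. On the left the 4 lower genes have transcripts of 3602 to 8512 bases and most higher genes are short, and on the right CLSPN is at 0.02 and PCNA, RFC2 and TIPIN are open points.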

How the data were processed

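Paired-end reads were obtained from poly-A RNA of 9 cultures. Per the labels and methods, the authors used STAR 2.7.3a with GRCh38, and the methods give Salmon 1.1.0 with the protein-coding genes of GENCODE as the quantifier. The deposited table holds a raw count for each gene symbol, whole numbers that include non-coding genes, so whether this table came from Salmon is not clear, and strandedness is not stated. All 9 columns of the table were used. The labels and the methods give different cytokine concentrations, and none is printed.

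Testing used edgeR 4.0.16 under R 4.3.3. The filterByExpr function with a minimum count of 10 left 15717 genes, TMM factors were 0.969 to 1.07, and all 9 libraries entered 1 quasi-likelihood model whose term was the line. P-values are 2-sided and adjusted over all tested genes, with a threshold of 0.05. The standard error is the absolute log2 fold change divided by the square root of F. The biological coefficient of variation was 10.4%. The p-values set the difference between lines against the spread between cultures of a line, pooled over all 9 libraries. They do not cover the spread between separate transformations of MCF10A. The fit was tested on simulated data with the same spread for all genes and no effect of transcript length. That run therefore does not bear on the relation with length.

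The 40 members and the other lists were chosen with earlier results of these data known. All 40 genes are named. Values per library are given for the nucleotide supply genes, the cell cycle regulators, PCNA and the 3 genes of each other subgroup with the largest change in either line against CT, and 2 other replication genes are named per comparison. Positions and lengths are from GENCODE release 44, and lengths and GC content were found for 88.0% of tested genes. Some members have pseudogenes (among them PCNA, RRM2 and TYMS), with which reads may be shared.

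Alternatives were RLE factors, total counts, DESeq2 1.42.0, a mean of at least 50 counts, no filter, the 6 libraries compared, a replicate block and leaving out each library. Offsets for length and GC content, alone and with the block, were chosen after seeing the data. A further leukocyte marker is not reported here.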

Additional observations from a re-analysis of the deposited data

Results flagged for a closer look

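In 23 S phase genes the change from CT was not the same in both transformed lines when M1B26 was tested directly on MC26 (edgeR, adjusted p under 0.05). Of all tested genes, 21.2% were higher and 18.4% lower in M1B26 by the same test. The log2 difference was negative, so lower in M1B26, for E2F8 (-1.38), CLSPN (-0.77), RRM2 (-0.60), CCNE2 (-0.59), UHRF1 (-0.49), BLM (-0.44), USP1 (-0.42), MCM6 (-0.39), POLA1 (-0.38), POLD3 (-0.36), CASP8AP2 (-0.36) and ATAD2 (-0.35). It was also negative for MCM7 (-0.34), WDR76 (-0.34), MCM5 (-0.28), NASP (-0.26), FEN1 (-0.24), UBR7 (-0.24), CDC45 (-0.24), DTL (-0.23) and MCM4 (-0.21). It was positive for GINS2 (0.34) and GMNN (0.26). Of the 23 calls, 15 were kept in all 18 alternative fits. Groups of 3 libraries are too small for single libraries to be tested as outliers.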

How the results depend on the processing

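Of the calls of S phase genes, 22 of 28 in MC26 against CT, 11 of 17 in M1B26 against CT and 15 of 23 in M1B26 against MC26 were kept in all 18 alternatives. With total counts the median in M1B26 against CT was -0.01386 and 7 genes were lower, the median of all tested genes having moved to -0.09. CLSPN in M1B26 against CT was 0.0203 with length and GC offsets and 0.018 when these were combined with the replicate block, and the cause was not tested. Between the lines, 27 genes were lower with the offsets and 25 with the block as well, where 3391 and 3250 of 15717 tested genes were. GMNN lost its call against MC26 with both, leaving 1 higher gene, and in the fits without MC26 replicate 2 or M1B26 replicate 2, which gave 1 to 2 higher genes over all libraries left out. Leaving out 1 library gave 22 to 33 higher genes in MC26, 10 to 16 higher and 3 to 5 lower in M1B26, and 15 to 22 lower between the lines. The calls over all tested genes moved in these fits as well. The median ran from 0.29 to 0.40, 0.05 to 0.11 and -0.25 to -0.18. Over all pairs of lines equal replicate numbers did not stand apart: deviations correlated at -0.14 to 0.21 for equal and -0.20 to 0.19 for different numbers. Between MC26 and M1B26 equal numbers gave 0.148, 0.0701 and 0.157, and the highest value for different numbers was 0.0478. Whether the libraries of these lines were paired was not tested. With the replicate block 30 genes were higher in MC26 (RAD51AP1 and NASP added), 13 higher and 4 lower in M1B26, and 2 higher and 21 lower between the lines. The other alternatives kept the direction of each median. Depth was no limit to detection, since the lowest S phase gene (E2F8) had at least 204 counts in every library.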
